A study of Mus musculus with 4 samples.

Results

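Flt3, Satb1 and Notch1, genes associated with the first steps of lymphoid commitment, were followed together with the cytokine gene Il12a across single-cell libraries of mouse bone marrow. The 4 genes were taken by symbol from the deposited feature lists, 4 of 32285 gene features, and each matched 1 row. Surface antibody CD135, which recognises the Flt3 protein, was read beside Flt3 RNA in the same cells. The cells were Kit-positive bone marrow cells carrying CD45.2, an allele of a leukocyte surface protein used to tell transplanted cells from those of a host, collected 10 weeks post-transplantation. A single library came from each of 4 groups, namely control cells and cells labelled as deleted for Mll3, for Mll4, or for both (Mll3/4). The labels do not name the alleles, the agent or Cre line used for deletion, the hosts, or the number of animals. Kmt2c encodes Mll3 and Kmt2d encodes Mll4, a pair of histone H3 lysine methyltransferases that act at enhancers. Because each group was 1 library, no test between groups was possible. Intervals are exact 95% limits that cover counting error alone, and every comparison sets 1 library against another.

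Flt3 is a receptor tyrosine kinase that binds Flt3 ligand. It is low on long-term haematopoietic stem cells (HSC), appears on multipotent progenitors (MPP) with lymphoid potential and on dendritic cell precursors, and is switched off as B-cell progenitors commit under Pax5. Satb1 is a chromatin organiser that promotes lymphoid potential in stem cells. Notch1 is a receptor that, once cut after ligand binding, releases an intracellular domain that acts with the DNA-binding protein Rbpj. It directs early progenitors to the T lineage, and its direct targets include Hes1, Heyl and Nrarp. Il12a encodes the p35 chain shared by interleukin 12 and interleukin 35.

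The deposited matrices held between 6622 and 10001 barcodes per library, and between 5373 and 7152 cells were kept. The median kept cell had 15757.5 gene UMIs (unique molecular identifiers, each a counted molecule) in control, 16953.5 in the Mll3 library, 5148 in the Mll4 library and 9968 in the Mll3/4 library. At most 24 barcodes were shared between any 2 libraries. Kmt2c was at 47.9 CPM (counts scaled to a total of 1000000 gene UMIs) in control, 27.2 in the Mll3 library, 59.5 in the Mll4 library and 34.7 in the Mll3/4 library. Kmt2d was at 25.7, 21.6, 25 and 24.7 CPM in the same order, so over all kept cells it was no lower than control beyond counting error where Mll4 is labelled as deleted. In B-cell progenitor-like cells it was at 40.3 CPM in control, 25.4 CPM with the Mll3 label, 16.8 CPM with the Mll4 label (6 counts) and 24.7 CPM with the Mll3/4 label. The Mll3 and Mll3/4 intervals lay below that of control, and the Mll4 interval overlapped it. A count of 3' ends need not follow the removal of an upstream exon. Cells of the 3 libraries are therefore named Mll3-labelled, Mll4-labelled or Mll3/4-labelled. Xist was at 0.516 CPM with the Mll4 label and between 955 and 1838 CPM in the other libraries, so sex and the Mll4 label cannot be told apart. Cells fell into 26 clusters, of which 25 were assigned to 11 classes from marker genes. Clustering left out the 4 genes described here. HSC/MPP-like cells numbered 1587 in control and 1117, 455 and 13 in the Mll3-labelled, Mll4-labelled and Mll3/4-labelled libraries. B-cell progenitor-like cells numbered 469, 369, 144 and 6846, which was 98.8% of the kept Mll3/4-labelled cells.

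In GENCODE M21 on GRCm38, Flt3 (ENSMUSG00000042817) lies on the reverse strand of chromosome 5 from 147330741 to 147400489, and Satb1 (ENSMUSG00000023927) on the reverse strand of chromosome 17 from 51736187 to 51833290. Notch1 (ENSMUSG00000026923) lies on the reverse strand of chromosome 2 from 26457903 to 26516663, and Il12a (ENSMUSG00000027776) on the forward strand of chromosome 3 from 68690644 to 68698547. Antisense or opposite-strand transcripts overlap Flt3, Satb1 and Notch1, and transcripts on the same strand overlap Satb1 and Notch1. Flt3 and Notch1 stood on opposite sides of control in the B-cell progenitor-like Mll3/4-labelled cells, so the 250 bases before a start site of each are shown. Both come from RefSeq on GRCm38.p6 and are written 5′ to 3′ on the gene's own strand. The Flt3 window is chr5:147400490-147400739 and the Notch1 window is chr2:26503823-26504072, which lies inside the longer GENCODE span of Notch1. RefSeq gives several start sites for Satb1 and Il12a, whose windows are not shown. Capitals mark a match to a searched motif.

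Flt3: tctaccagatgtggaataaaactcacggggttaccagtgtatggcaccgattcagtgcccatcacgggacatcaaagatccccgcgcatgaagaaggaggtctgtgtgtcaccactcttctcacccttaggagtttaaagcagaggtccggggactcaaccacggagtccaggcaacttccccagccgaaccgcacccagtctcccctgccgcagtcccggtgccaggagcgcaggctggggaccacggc

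Notch1: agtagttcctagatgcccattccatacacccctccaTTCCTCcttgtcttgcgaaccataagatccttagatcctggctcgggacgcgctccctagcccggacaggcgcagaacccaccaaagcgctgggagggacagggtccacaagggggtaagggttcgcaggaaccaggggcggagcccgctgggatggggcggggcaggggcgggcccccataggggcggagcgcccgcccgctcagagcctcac

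Both strands of each window were searched for 5 short motifs. These were TCCCNNGGG (bound by EBF factors), CAGCTG (an E-box), TGTGGT (RUNX), GAGGAA (PU.1) and TGGGAA (RBPJ, the partner of Notch). None matched in the Flt3 window. GAGGAA matched once in the Notch1 window, on the opposite strand, where it reads TTCCTC. Of 32851 RefSeq promoter windows of the same length, 5.60% held the EBF motif, 13% the E-box, 14.0% the RUNX motif, 23.3% the PU.1 motif and 21.6% the RBPJ motif.

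In the control library each gene had its own order over the 9 cell classes with at least 50 cells. Flt3 was highest in HSC/MPP-like cells at 59.2 CPM (56.2 to 62.3), which held 85.4% of all its counts. Monocyte/macrophage progenitor-like cells followed at 31.5 CPM (26.3 to 37.4) and T/NK/innate lymphoid-like cells at 16.6 CPM, and those intervals overlapped. B-cell progenitor-like cells had 5.67 CPM (18 counts, 3.36 to 8.96). Granulocyte progenitor-like cells had 4.20 CPM, and each of the 4 remaining classes with at least 50 cells had under 2 CPM. Neighbours in that order had overlapping intervals from the monocyte/macrophage class downwards.

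Satb1 in control was at 196 CPM (149 to 253) in the 50 T/NK/innate lymphoid-like cells, above the interval of every other class. B-cell progenitor-like cells at 68.3 CPM and HSC/MPP-like cells at 57.4 CPM came next and overlapped. Neutrophil-like cells held 39.2 CPM, granulocyte progenitor-like cells 18.2 CPM and erythroid progenitor-like cells 0.840 CPM. Notch1 was at 59.9 CPM in T/NK/innate lymphoid-like cells and 39.8 CPM in neutrophil-like cells, with overlapping intervals. Notch1 was next at 31.0 CPM in monocyte/macrophage progenitor-like cells, 23 CPM in B-cell progenitor-like cells and 21.2 CPM in HSC/MPP-like cells, each overlapping its neighbour. Il12a was highest in B-cell progenitor-like cells at 61.1 CPM (52.8 to 70.3), ahead of megakaryocyte-like cells at 34.5 CPM and HSC/MPP-like cells at 24 CPM. The megakaryocyte-like class held 27.4% of the Il12a counts of the control library, and neutrophil-like cells were at 1.13 CPM.

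**Figure D1:**
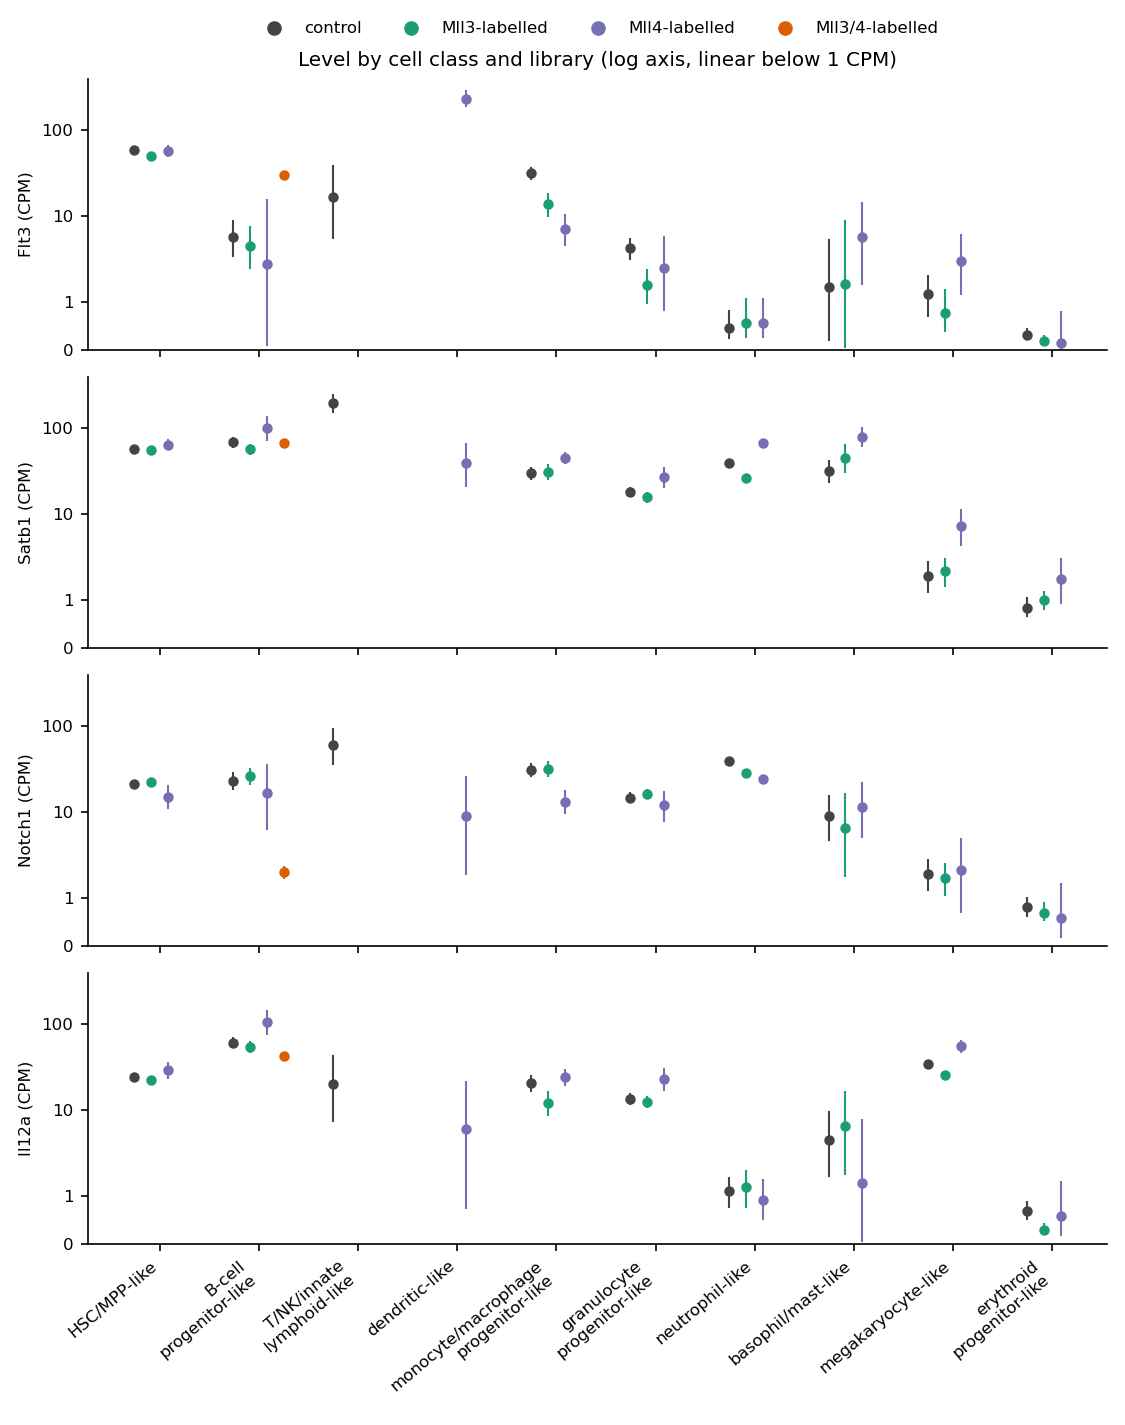
CPM of Flt3, Satb1, Notch1 and Il12a (rows, log axis that is linear below 1 CPM) in cell classes with at least 50 cells, by library (colour); bars are exact 95% counting intervals. In B-cell progenitor-like cells the Mll3/4-labelled point lies above the other libraries for Flt3 (29.7 CPM) and below them for Notch1 (1.98 CPM).

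Within the HSC/MPP-like class of control, Flt3 and Satb1 were ordered along the surface proteins CD150 and CD48, which were not used to cluster the cells. CD150-positive CD48-negative cells, the gate in which stem cells are found, had Flt3 at 11.7 CPM (213 cells, 7.92 to 16.8) and Satb1 at 3.52 CPM (9 counts, 1.61 to 6.69). In CD150-positive CD48-positive cells Flt3 was at 31.0 CPM and Satb1 at 19.0 CPM. CD150-negative CD48-positive cells had Flt3 at 64.8 CPM (61.2 to 68.5) and Satb1 at 69.3 CPM (65.6 to 73.1). In CD150-negative CD48-negative cells Flt3 was at 96.7 CPM and Satb1 at 39.98 CPM. The highest level of Flt3 and that of Satb1 were therefore in different gates, and neither interval overlapped that of the other gates for the same gene.

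Notch1 and Il12a spanned a narrower range over the same gates. Notch1 in control lay between 11.4 CPM in CD150-positive CD48-positive cells and 22.7 CPM in CD150-negative CD48-positive cells, and its value in the stem cell gate was 15.3 CPM (10.9 to 20.9). Il12a lay between 10.6 and 27.1 CPM. In the stem cell gate of Mll3-labelled cells Notch1 was at 6.1 CPM (16 counts, 3.49 to 9.91), below the control interval, with Satb1 at the same level and Flt3 at 7.63 CPM. That gate held 205 Mll3-labelled and 55 Mll4-labelled cells, and in the latter Satb1 had 0 counts, for which a limit of 3 counts is 11.6 CPM and the exact upper limit 14.3 CPM.

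**Figure D2:**
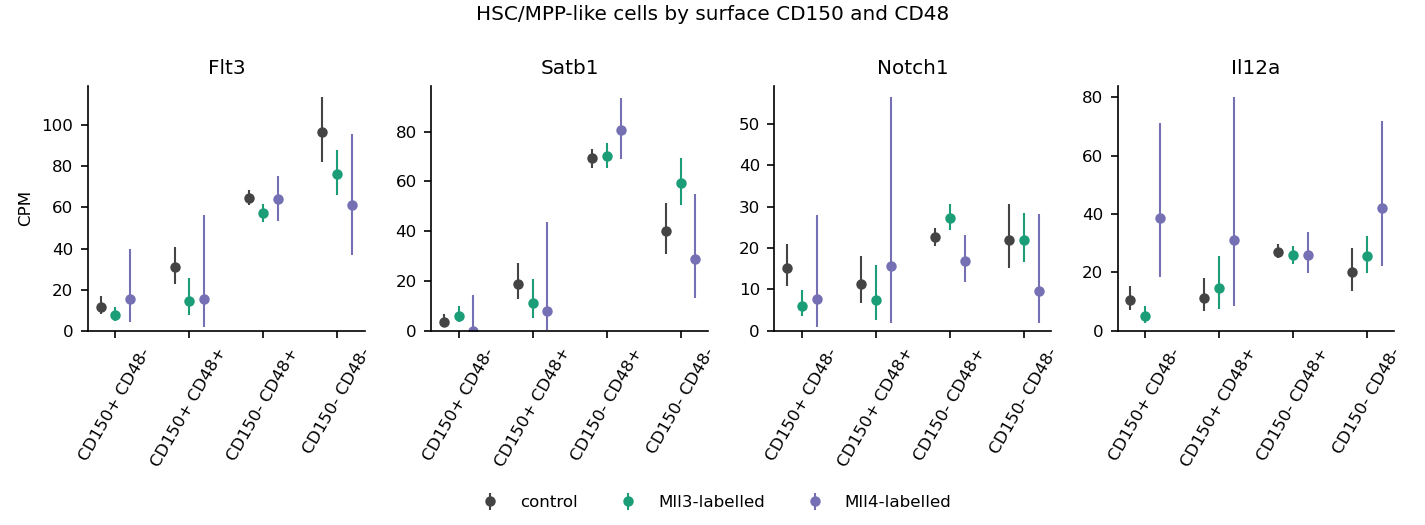
CPM of each gene in HSC/MPP-like cells split by surface CD150 and CD48 in the control, Mll3-labelled and Mll4-labelled libraries; bars are exact 95% counting intervals. Flt3 and Satb1 are lowest in the CD150-positive CD48-negative gate of control (11.7 and 3.52 CPM), and the bars of Mll4-labelled cells are the widest.

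CD135 antibody counts were low, with a mean of 3.24 per HSC/MPP-like cell of control against 2.55 per neutrophil-like cell, a class with Flt3 RNA at 0.460 CPM. Within the class, cells with more CD135 had more Flt3 RNA. The cells of each library were ranked by the CD135 share of their antibody UMIs and cut into 4 bins of equal size. From the lowest to the highest bin Flt3 was at 22.6, 43.8, 58.0 and 124 CPM in control, at 19.5, 29.9, 37.9 and 127 CPM in Mll3-labelled cells, and at 32.4, 38.2, 68.7 and 107 CPM in Mll4-labelled cells. The order of Flt3 RNA followed that of the surface protein in this class of each of those libraries. It did not in monocyte/macrophage progenitor-like cells of control, at 18.5, 30.6, 16.1 and 60.3 CPM, where the top bin alone stood above the rest. In B-cell progenitor-like cells of control the bins were at 6.16, 3.91, 3.48 and 9.55 CPM. These rest on 5, 3, 3 and 7 counts with overlapping intervals, so no order could be read. In HSC/MPP-like cells of control the other genes were higher in the top bin than in the bottom bin too. Satb1 was at 96.9 against 35.1 CPM, Notch1 at 37.7 against 15.7 CPM and Il12a at 49.0 against 12.1 CPM. In the Mll4-labelled library Satb1 was at 66.2 against 53.7 CPM and Notch1 at 14.7 against 17.5 CPM, with overlapping intervals, while Il12a was at 64.3 against 19.96 CPM, without overlap. The median gene UMI count was 12350.5 in the top bin of control and 15982 in the bottom bin.

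Against control, none of the 4 genes was at least 2-fold higher or lower in the HSC/MPP-like cells of the Mll3-labelled or the Mll4-labelled library. Among all genes with at least 20 counts in either library, 2.92% passed 2-fold in the first comparison and 10.5% in the second. For Mll4-labelled cells this depended on the clustering: Notch1 was at a log2 ratio of -1.18 with Leiden resolution 0.5, and Il12a at 1.11 with another random seed. Flt3 was at 59.2 CPM in control, 50.6 CPM in Mll3-labelled cells and 57.0 CPM in Mll4-labelled cells. The log2 ratio to control was -0.23 (-0.35 to -0.11) for Mll3-labelled cells and -0.05 (-0.30 to 0.18) for Mll4-labelled cells. The second became 0.75 with the other seed, so its direction was not fixed. Flt3 in cells carrying only hashtag 1 (an antibody barcode that marks a subset of a library, of which the labels do not say what it stands for) was at 53.9 CPM in control, 52.7 CPM in Mll3-labelled cells and 66.8 CPM in Mll4-labelled cells. With hashtag 2 only, it was at 64.2, 47.9 and 41.0 CPM. In the Mll4-labelled library the Flt3 difference between hashtags was therefore larger than its difference from control.

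Satb1 in HSC/MPP-like cells was at 57.4 CPM in control, 56.4 CPM in Mll3-labelled cells and 64.4 CPM in Mll4-labelled cells, and both intervals of the log2 ratio included 0. Notch1 was at 21.2, 22.4 and 15.1 CPM, and its log2 ratio in Mll4-labelled cells was -0.48 (43 counts, -0.97 to -0.03). For all genes together the median there was 0.20. Il12a was at 24, 22.2 and 29.2 CPM, with intervals of the ratio that included 0. The 3 comparisons with control share its library and are not independent.

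In B-cell progenitor-like cells, Flt3 was higher and Notch1 lower in Mll3/4-labelled cells than in every other library, while Satb1 over the whole class was within counting error of control. Flt3 was at 5.67 CPM in control (18 counts), 4.51 CPM in Mll3-labelled cells (13 counts), 2.80 CPM in Mll4-labelled cells (1 count) and 29.7 CPM in Mll3/4-labelled cells (2264 counts, 28.5 to 31.0). The Mll3/4-labelled value lay above the upper limits of control, at 8.96 CPM, and of Mll3-labelled cells, at 7.72 CPM. Over all genes, 15.2% were at least 2-fold higher and 10.7% at least 2-fold lower in this comparison with control, 25.9% in all, so a 2-fold difference was common. Of the 3 genes with 20 counts in both libraries, Notch1 was past 2-fold, in the lower direction. Flt3 reached 20 counts in Mll3/4-labelled cells only, so no ratio was taken and its levels are given as a description. The comparison sets different clusters against each other. Control, Mll3-labelled and Mll4-labelled cells of the class lay in clusters C0 and C18, whereas Mll3/4-labelled cells lay almost entirely in C22, C23, C24 and C25. The division gene Mki67 was at 120 CPM in control C0 and 1400.4 CPM in control C18, at 84.3 and 139 CPM in C22 and C23, and at 1692 and 1522 CPM in C24 and C25. C0, C22 and C23 are called quiet and C18, C24 and C25 dividing from these values.

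The Flt3 difference held in each cluster. Control cells of C0 were at 3.98 CPM and those of C18 at 6.78 CPM, with an upper limit of 11.6 CPM. In the Mll3/4-labelled library Flt3 was at 30.2 CPM in C22, 33.6 CPM in C23, 24.8 CPM in C24 and 31.9 CPM in C25, and no lower limit was under 22.6 CPM. A Flt3 UMI was seen in 20.7% of the Mll3/4-labelled cells and 3.62% of control cells, with median depths of 9937 and 4410 UMIs. After thinning each cell to 2000 UMIs, which left out 83 and 30 cells, the shares were 5.44% and 0.456%. Neutrophil-like cells of control, which should lack Flt3, were at 0.571% with a median of 13596.5 UMIs, and at 0.114% after thinning.

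**Figure D3:**
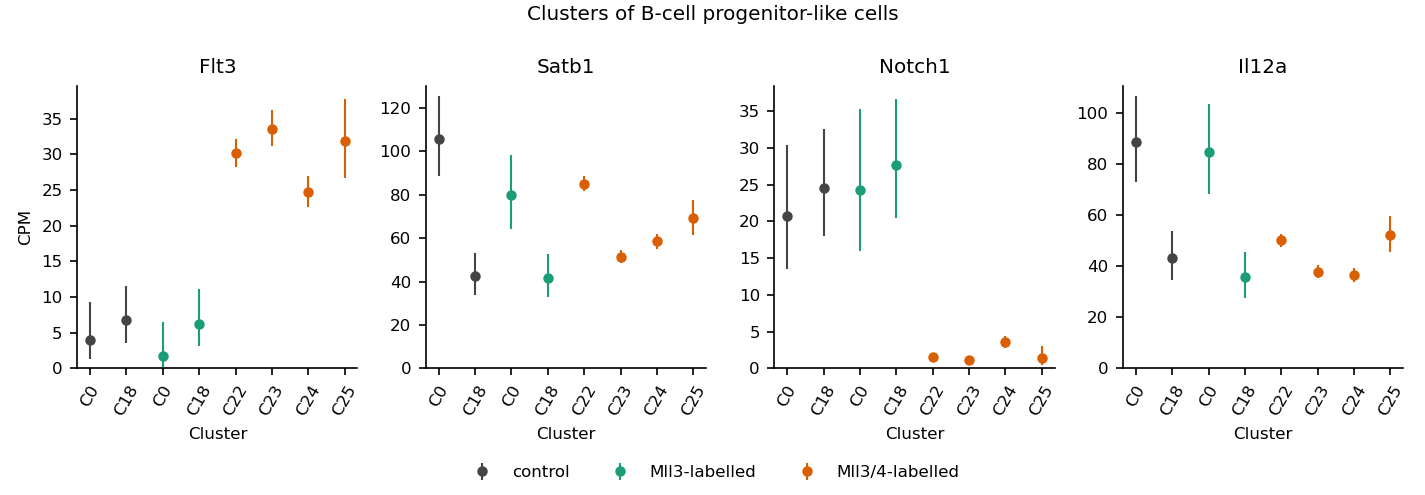
CPM of each gene in the clusters that make up the B-cell progenitor-like class, by library (colour); bars are exact 95% counting intervals. For Flt3 the 4 Mll3/4-labelled clusters lie between 24.8 and 33.6 CPM, above the other clusters, and for Notch1 they lie between 1.15 and 3.54 CPM, below them.

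The 2 hashtags of the Mll3/4-labelled library did not carry the same level of Flt3. Among B-cell progenitor-like cells, Flt3 was at 19.1 CPM (743 counts, 17.8 to 20.6) in the 3681 cells with hashtag 1 only and at 41.2 CPM (1425 counts, 39.1 to 43.4) in the 2983 cells with hashtag 2 only, a 2.15-fold difference (1.97 to 2.36). Only 1.24% of all genes were at least 2-fold higher with hashtag 2. Both Flt3 values lay above the control interval of the class, in which cells with hashtag 1 were at 8.02 CPM and those with hashtag 2 at 3.90 CPM. Within C22 Flt3 was at 19.6 and 47.0 CPM, within C23 at 23.4 and 41.6 CPM, within C24 at 14.5 and 33.9 CPM and within C25 at 18.4 and 46.4 CPM, with hashtag 1 first. The ratio between hashtags thus had the same direction in all 4 clusters. Satb1 was at 68.6 and 66.5 CPM and Notch1 at 1.98 and 1.97 CPM, which was within counting error, and Il12a was at 39.9 and 47.0 CPM.

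CD135 moved with Flt3 RNA across the hashtags. Its mean was 2.88 per cell (2.83 to 2.94) with hashtag 1 and 5.19 per cell (5.11 to 5.28) with hashtag 2, and 1.39% and 12.1% of cells had at least 10 CD135 counts. The lower mean was close to the 2.83 (2.18 to 3.6) of the 23 neutrophil-like cells in that library. CD127, the interleukin 7 receptor, was at 53.5 and 54.4 per cell and B220 at 23.8 and 24.2. CD117, the Kit protein, was at 236 and 433 per cell, so it differed between hashtags as CD135 did. The median cell had 448 antibody UMIs with hashtag 1 and 721 with hashtag 2, and the part of this in the CD135 difference was not tested. Over the whole class CD135 was at 2.13 per cell in control, 2.49 in Mll3-labelled cells, 3.42 in Mll4-labelled cells and 3.92 in Mll3/4-labelled cells. Mll4-labelled neutrophil-like cells were at 3.51, so its value did not stand above that reference.

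Within each hashtag, cells with more CD135 had more Flt3 RNA. With hashtag 1, the 4 bins by CD135 share had Flt3 at 14.6, 16.1, 20.6 and 25.5 CPM. With hashtag 2, they had 18.1, 35.3, 44.8 and 67.6 CPM. Over both hashtags together Satb1 lay between 65.1 and 70.6 CPM and Notch1 between 1.82 and 2.21 CPM across the bins, a narrower range than that of Flt3. Over 28 library-by-class sums the Pearson correlation of CD135 per cell with log2(Flt3 CPM + 1) was 0.61. It was 0.58 without the Mll4-labelled dendritic-like cells (107 cells), which had the highest Flt3 at 234 CPM and the highest CD135 at 16.1 per cell. The sums of a library share its depth and staining. Flt3 reached 20 counts in only 11 of the 28, and CD135 per cell was not scaled for antibody depth, so the correlation is a description.

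**Figure D4:**
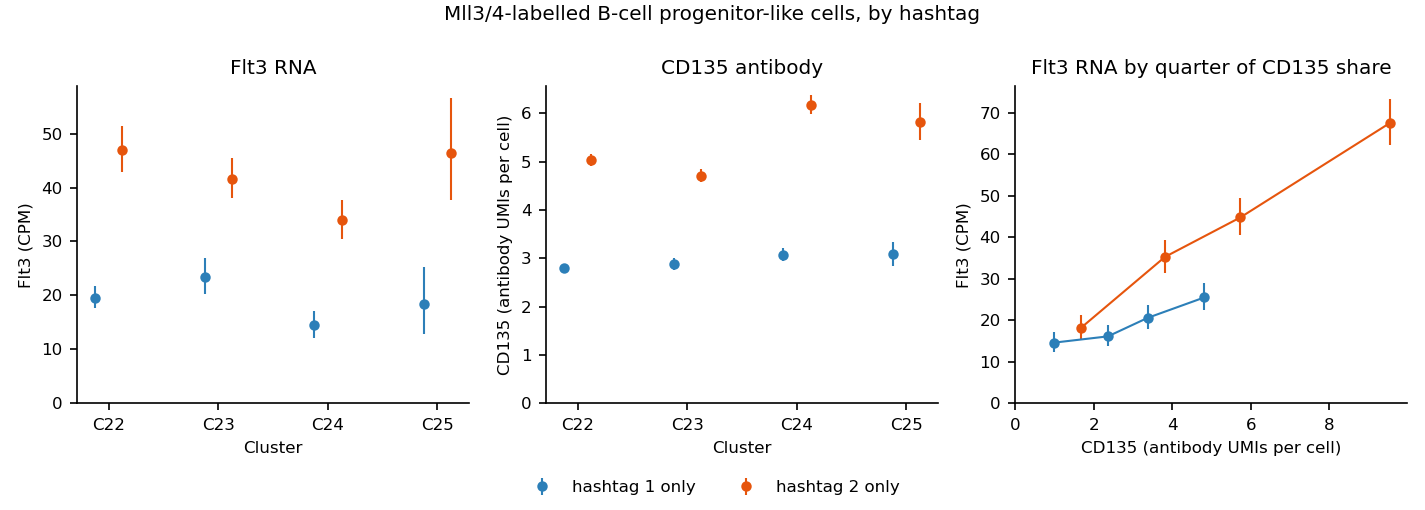
B-cell progenitor-like Mll3/4-labelled cells split by hashtag (colour): Flt3 CPM by cluster, CD135 antibody UMIs per cell by cluster, and Flt3 CPM against mean CD135 in 4 bins of the cells by CD135 share; bars are exact 95% counting intervals. Hashtag 2 lies above hashtag 1 in all 4 clusters for RNA and antibody, and Flt3 is higher in each further bin of both.

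Notch1 in B-cell progenitor-like cells was at 23 CPM in control (73 counts, 18 to 28.9), 26.4 CPM in Mll3-labelled cells (76 counts, 20.8 to 33.0), 16.8 CPM in Mll4-labelled cells (6 counts, 6.16 to 36.5) and 1.98 CPM in Mll3/4-labelled cells (151 counts, 1.68 to 2.33). The Mll3/4-labelled interval overlapped none of the others. Control was 11.6-fold higher (8.64 to 15.4), a log2 ratio of -3.53 for Mll3/4-labelled cells, and 1.92% of all genes had a lower ratio. Notch1 had much the same level in the quiet and the dividing clusters of control, at 20.7 CPM in C0 and 24.5 CPM in C18. In the Mll3/4-labelled library it was at 1.57, 1.15, 3.54 and 1.41 CPM in C22, C23, C24 and C25. The 85 cells of that library outside the class had Notch1 at 16.7 CPM (29 counts, 11.2 to 24). Control cells outside the class were at 12.5 CPM. These sets differ in makeup and are not like cells. They held 3 and 1718 erythroid progenitor-like cells, a class with Notch1 at 0.799 CPM in control.

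Targets of Notch differed among themselves in these cells. Heyl, a transcriptional repressor, was at 20.5 CPM in control (65 counts), 12.8 CPM in Mll3-labelled cells, 0 counts in Mll4-labelled cells and 0.512 CPM in Mll3/4-labelled cells (39 counts). Nrarp, an inhibitor of Notch signalling that Notch itself induces, was at 10.4, 13.2, 8.39 and 0.526 CPM, of which the Mll4-labelled value rests on 3 counts. Both were thus lower in Mll3/4-labelled cells beside Notch1, with log2 ratios to control of -5.32 (-5.93 to -4.73) and -4.31 (-5.01 to -3.59). Hes1 went the other way, at 86.0 CPM in control, 84.4 in Mll3-labelled cells, 159 in Mll4-labelled cells and 127 in Mll3/4-labelled cells. Hes5 was at 15.1, 11.1, 5.59 and 24.2 CPM. Gata3, a T-lineage factor, had 1.57 CPM in control cells (5 counts) and 14.3 CPM in Mll3/4-labelled ones. Of these libraries it reached 20 counts in the Mll3/4-labelled one alone, so nothing is read from its direction.

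**Figure D5:**
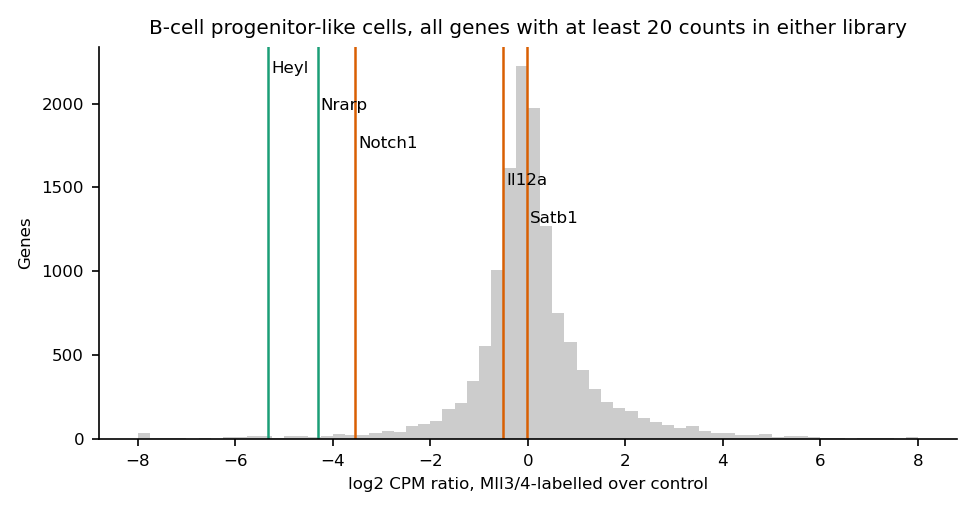
Histogram of log2 CPM ratios (Mll3/4-labelled over control, B-cell progenitor-like cells) for all genes that reached 20 counts in either library, where the outermost bins hold all values beyond 8 in size and lines mark Notch1, Il12a and Satb1 (orange) and the Notch targets Heyl and Nrarp (green). Notch1 at -3.53 lies in the left tail, and Satb1 at -0.01 lies at the centre. The targets Hes1 (86.0 CPM in control, 127 in Mll3/4-labelled cells) and Hes5 (15.1 and 24.2 CPM) were higher and are not marked.

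Markers of other cell types also differed between the libraries within this class. The 8 neutrophil markers summed to 2427 CPM in control, 1790 in Mll3-labelled cells, 6361 in Mll4-labelled cells and 81.1 in Mll3/4-labelled cells, with Mmp8 at 0 in all but the last. The 9 T/NK/innate lymphoid markers summed to 55.1, 41.7, 39.2 and 1.76 CPM, with Cd3e and Trbc2 among the 4 at 0 in control. Neutrophil markers in the control class stood at 0.650% of their level in neutrophil-like cells, and Notch1 stood at 57.7% of its level there. Heyl was at 0.0418 CPM and Nrarp at 0.0836 CPM in neutrophil-like cells of control. The part of neutrophil transcripts and that of T/NK/innate lymphoid transcripts in the Notch1 level were not tested. The 8 HSC/MPP markers summed to 28.7, 40.3, 50.3 and 152 CPM. Most of the last sum came from Hoxa9 at 72.6 CPM and Meis1 at 51.0 CPM, which in control were at 3.15 and 7.56 CPM. Procr was among the markers at 0 in control and in Mll3/4-labelled cells. The part of this difference in the Flt3 level was not tested.

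Satb1 in B-cell progenitor-like cells was at 68.3 CPM in control, 56.6 CPM in Mll3-labelled cells, 101 CPM in Mll4-labelled cells (36 counts) and 67.9 CPM in Mll3/4-labelled cells. The log2 ratio of the last to control was -0.01 (-0.21 to 0.19). That of Mll4-labelled cells was 0.56 (0.01 to 1.07), and it was -0.18 when every cell was thinned to 2000 UMIs. Satb1 differed between the control clusters, at 106 CPM in C0 and 42.8 CPM in C18, and the Mll3/4-labelled clusters lay between them. Among quiet cells the log2 ratio to C0 was -0.31 (-0.57 to -0.05) for C22 and -1.04 (-1.30 to -0.77) for C23. Among dividing cells the ratio to C18 was 0.45 (0.13 to 0.79) for C24 and 0.69 (0.34 to 1.07) for C25. Satb1 was therefore below control in quiet cells and above it in dividing cells, and these pairs of clusters were set side by side after their values were seen. For C22 this depended on the reference. Against C0 of Mll3-labelled cells (80.1 CPM) the log2 ratio was 0.09 (-0.22 to 0.41) for C22 and -0.64 (-0.95 to -0.31) for C23. Against C18 of that library C24 was at 0.48 (0.14 to 0.84) and C25 at 0.72 (0.35 to 1.11). Il12a was at 61.1, 54.5, 106 and 43.2 CPM in the 4 libraries. Its log2 ratio to control was -0.50 (-0.71 to -0.28) in Mll3/4-labelled cells, and it was between -0.25 and 0.27 for C24 and C25 against C18, with intervals that included 0. For C22 and C23 against C0 it was -0.82 and -1.23.

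Over all kept cells the ratios of the same genes differed from those within classes. Flt3 was at 11.2 CPM in control, 7.32 in Mll3-labelled cells, 8.77 in Mll4-labelled cells and 29.4 in Mll3/4-labelled cells. Satb1 was at 20.1, 14.7, 45.3 and 67.0 CPM, Notch1 at 12.7, 9.32, 14.8 and 2.31 CPM, and Il12a at 10.0, 8.39, 12.1 and 42.5 CPM. The log2 ratios of Mll3/4-labelled cells to control were 1.39 for Flt3, 1.73 for Satb1, -2.46 for Notch1 and 2.09 for Il12a. All 4 were past 2-fold, against 39.1% of all genes, so passing 2-fold there was common. For Satb1 and Il12a the direction over all cells was not found within the B-cell progenitor-like class (-0.01 and -0.50), which held 99.2% and 99.3% of their counts in that library. The Mll4-labelled values of Notch1 and Il12a were above control by 0.21 and 0.27 on the log2 scale, but below it, at -0.19 and -0.17, when each cell had equal weight. The Mll3-labelled value of Il12a was below control at -0.25 and above it at 0.06 after thinning. In such sums more cells of a type and more RNA per cell cannot be told apart.

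Among myeloid classes, Flt3 was lower in monocyte/macrophage progenitor-like cells of the Mll3-labelled and Mll4-labelled libraries than in control. It was at 31.5 CPM in control (129 counts), 13.7 CPM in Mll3-labelled cells (41 counts) and 7.09 CPM in Mll4-labelled cells (23 counts), with no overlap of either interval with that of control. Control was 2.29-fold higher than the first (1.60 to 3.34) and 4.44-fold higher than the second (2.83 to 7.25). Only 1.18% and 2.96% of all genes were at least 2-fold lower in those comparisons. Notch1 in these cells was at 31.0, 31.8 and 13.3 CPM, so it was lower in Mll4-labelled cells alone, with control 2.34-fold higher (1.64 to 3.38). The class was 1 cluster, of 191, 143 and 507 cells. Per hashtag, Flt3 was at 33.3 and 28.9 CPM in control and at 8.12 and 5.33 CPM in Mll4-labelled cells. Dendritic-like cells, which had Flt3 at 234 CPM in the Mll4-labelled library, numbered 2 in control, 8 with the Mll3 label and 107 with the Mll4 label. Whether the monocyte/macrophage progenitor-like class held the same mix of cells in each library was not tested.

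Granulocyte progenitor-like cells had Flt3 at 4.20 CPM in control (47 counts) and 1.58 CPM in Mll3-labelled cells (20 counts, the minimum for a ratio). The log2 ratio was -1.42 (-2.25 to -0.63), where 1.27% of all genes were at least 2-fold lower. In neutrophil-like cells Satb1 was at 39.2 CPM in control, 26.6 CPM in Mll3-labelled cells and 67.4 CPM in Mll4-labelled cells, and Notch1 at 39.8, 28.5 and 24.4 CPM. The log2 ratios of Mll4-labelled cells were 0.78 (0.65 to 0.91) for Satb1 and -0.71 (-0.89 to -0.53) for Notch1, opposite in sign. Most Mll4-labelled neutrophil-like cells lay in cluster C10 and most of control in C9 and C11. In C16, which held 294 control and 736 Mll4-labelled cells, Satb1 was at 53.0 and 93.4 CPM and Notch1 at 47.6 and 27.7 CPM, so both directions were also seen within 1 shared cluster. Median depth there was 9979.5 UMIs in control and 3322.5 in Mll4-labelled cells.

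Il12a in megakaryocyte-like cells was at 34.5 CPM in control, 25.7 CPM in Mll3-labelled cells and 55.3 CPM in Mll4-labelled cells, with log2 ratios of -0.42 (-0.64 to -0.21) and 0.68 (0.38 to 0.97). In the same class Satb1 had 1.89 CPM in control cells (23 counts) and 7.23 CPM in Mll4-labelled ones (17 counts). In basophil/mast-like cells Satb1 had 32.1 CPM in control cells and 80.0 CPM in Mll4-labelled cells, a log2 ratio of 1.32 (0.72 to 1.93), where 11.1% of all genes were at least 2-fold higher. Satb1 was thus higher than control beyond counting error in 5 of the 6 classes in which Mll4-labelled cells could be compared for it, and lower in 0. The median over all genes was itself above 0 in these comparisons, between 0.07 and 0.28, and in the granulocyte progenitor-like, B-cell progenitor-like and monocyte/macrophage progenitor-like classes Satb1 was higher than only 69.9%, 73.5% and 74.4% of all genes. In the B-cell progenitor-like class, 1 of those 5, the direction reversed after thinning.

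Genes of the Flt3 axis, in a list of 21, did not move together in the B-cell progenitor-like comparison of Mll3/4-labelled cells with control. Of 20 measured, 3 were at least 2-fold higher and 5 at least 2-fold lower, against 15.2% and 10.7% of all genes, so the share that was higher was near that over all genes. The median log2 ratio was -0.18 beside -0.01 for all genes. For each gene named next, the first value in parentheses is that of control and the second that of Mll3/4-labelled cells. Flt3 and Hoxa9 (3.15 and 72.6 CPM, 10 control counts) were measured here only through their counts in Mll3/4-labelled cells. Also higher was Meis1 (7.56 and 51.0 CPM), like Hoxa9 a homeobox factor known to act upstream of Flt3. Lower were the ligand gene Flt3l (2.83 and 0.670 CPM), the adaptor Gab2, the signal transducer Stat5a, the phosphatase gene Ptprj (14.8 and 6.32 CPM) and Spi1, which encodes PU.1 (49.7 and 3.95 CPM, a log2 ratio of -3.65). Pax5, a repressor of Flt3 in committed B-lineage cells, had 246 CPM in control cells and 368 CPM in Mll3/4-labelled ones. Flt3 and Pax5 were thus both higher in that library.

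In a list of 41 Notch pathway genes, 33 were measured in the same comparison, 3 were at least 2-fold higher and 5 lower, against the same 15.2% and 10.7% of all genes, with a median of 0.03. Those past 2-fold in the lower direction were Notch1, the targets Heyl and Nrarp, the ligand Jag2 (1.89 and 0.920 CPM, 6 control counts, within counting error) and the gamma-secretase subunit Aph1b (8.19 and 3.26 CPM). The 3 in the other direction were Gata3 with 5 control counts and Ptcra and the ligand Jag1 with 0. Those 3 were measured only through their counts in Mll3/4-labelled cells, so nothing is read from their direction. Among the other receptors Notch2 had 4.09 CPM in control cells (13 counts) and 6.44 CPM in Mll3/4-labelled cells. The nuclear partner Rbpj was at 39.99 and 46.0 CPM and the protease Adam10 at 60.8 and 60.4 CPM, both within 2-fold of control.

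The lymphoid priming list, which holds Flt3, Satb1 and Notch1 themselves, had 20 of 23 genes measured there, with 4 at least 2-fold higher and 6 lower, beside 15.2% and 10.7% of all genes, and a median of -0.09. Flt3, 1 of those 4, was measured only through its counts in Mll3/4-labelled cells, so nothing is read from its place in that count. Il7r, the receptor on which B-cell progenitors depend, had 265 CPM in control cells and 703 CPM in Mll3/4-labelled ones, and Foxo1, a factor needed for its expression, had 120 and 476 CPM. Among the lower ones were Notch1, Spib (27.7 and 3.13 CPM), Cd27 (12.0 and 4.37 CPM), Ltb and Tcf3. In the IL-12 list, 9 of 15 genes were measured, of which 0 were at least 2-fold higher and 2 lower, with a median of -0.06. These were the receptor genes Il6st (11.0 and 4.73 CPM) and Il12rb1 (2 control counts), of which the second was within counting error. In Mll3-labelled HSC/MPP-like cells the same 4 lists had 1 gene past 2-fold in all, Rag1 (14 control counts), where 2.92% of all genes were. In Mll4-labelled ones, where 10.5% of all genes were past 2-fold, each of the 4 lists had 1 gene at least 2-fold higher, and each but the Flt3 axis had 1 gene at least 2-fold lower. The largest ratio among genes with at least 20 counts in both was that of Cebpa, a myeloid factor, at 37.7 CPM in control and 146 CPM, followed in size by Ltb, which encodes lymphotoxin beta, at 40.6 and 10.9 CPM, and by Ets1 at 5.33 and 12.7 CPM.

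Genes with the most similar pattern to each member were sought over the 28 library-by-class sums by Pearson correlation of log2(CPM + 1), among 6162 candidate genes. For Satb1 they were Arid5a (0.92), Traf3ip3 (0.92), Arid5b, Coro7 and Mical1. For Notch1 they were Milr1 (0.87), Rassf2, Srpk2, Arid5b and Arid5a, so that 2 genes stood in both lists. The correlation between Satb1 and Notch1 themselves was 0.80. For Il12a they were Hmgn3 (0.89), Fkbp1a (0.87), Dusp2, Ifi203 and Uaca. Flt3 reached 20 counts in 11 of the 28 sums, too few for the same ranking. The sums of a library share its depth, and the correlations are descriptions.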

How the data were processed

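The unit was UMI counts per gene and cell, made by the authors with Cell Ranger 6.1.2 on mm10, per the submitters' processing notes, and deposited with no normalization. Each matrix held 32285 gene features and 15 antibody features, of which 2 were hashtags. Barcodes with at least 500 genes, at least 1000 UMIs and at most 10% mitochondrial UMIs were kept. The highest Scrublet scores were removed as doublets at 0.8% per 1000 barcodes. Kept cells were clustered with scanpy 1.11.5 (2000 variable genes without the 4 members, 30 components, 15 neighbours, Leiden resolution 1). Clusters were named from marker lists of 14 classes when at least 3 markers were detected in at least 10% of cells and the 10 leading genes did not favour another class. Doublets may remain among kept cells, since between 1.57% and 4.75% were positive for both hashtags.

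Counts were summed per library and class and scaled to CPM. Intervals are exact Poisson limits for levels, exact binomial limits for shares, and limits from the binomial split of the counts for ratios. A ratio was taken with at least 50 cells and at least 20 counts in both libraries. Shares of genes past 2-fold used genes with at least 20 counts in either library and 0.5 counts added. CD150 and CD48 gates were the crossing points of 2-component mixtures in control, 13.8 and 377 counts. Free RNA was not corrected. Of 32285 gene identifiers, 32158 were in GENCODE M21.

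The members, gene lists and alternatives were chosen with earlier results of these data known. Genes named beside the members were the measured ligands, receptors and targets of the lists, the 3 largest ratios in a list, the genes past 2-fold and the 5 most similar genes. Pax5, Rbpj, Adam10, Kmt2c, Kmt2d and Xist were added as background to a result, and clusters C0, C16 and C18 were singled out after their values were seen. The fold calculation was tested on simulated data. Alternatives were trimmed mean scaling (edgeR 4.0.16), means over cells, other filters, thinning to 2000 UMIs, other clusterings and each hashtag alone. Separate reference clusters were added after seeing the data. Some genes of the lists are counted but not reported here by name.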

Additional observations from a re-analysis of the deposited data

How the results depend on the processing

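Each result was recomputed with other filters, scalings, clusterings and weights. Of 204 alternatives to results that answer a comparison, 148 stayed within the counting interval or within 1.5 times a count, 56 moved and 0 reversed. Of 203 others, 170 stayed, 26 moved and 7 reversed. Reversed here means a change of sign of a ratio whose own interval left out 0. Ratios whose interval included 0, such as Mll4-labelled Flt3 and Mll3-labelled Satb1 in HSC/MPP-like cells and Satb1 in Mll3/4-labelled B-cell progenitor-like cells, did change sign and are counted as moved or as stayed. The cause was not tested. The Mll3/4-labelled Notch1 ratio in B-cell progenitor-like cells moved under none.

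Over all kept Mll3/4-labelled cells, the log2 ratios of Flt3, Satb1, Notch1 and Il12a were 0.98, 1.11, -3.45 and 1.51 as means of cell shares and 0.92, 1.1, -3.35 and 1.67 after thinning. With hashtag 1 or 2 alone Flt3 was at 0.77 or 1.86 and Il12a at 1.84 or 2.33.

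In B-cell progenitor-like cells Satb1 was at -0.32 and Il12a at -0.76 as means of cell shares, and at 0.63 and -0.00071 with Leiden resolution 0.5. Against C0 alone they were at -0.64 and -1.03, and against C18 alone at 0.67 and -0.0026, references chosen after seeing the data. Mll3/4-labelled Flt3 was 31.0 CPM with trimmed mean scaling, 28.2 CPM with at most 5% mitochondrial UMIs, and 19.1 or 41.2 CPM with hashtag 1 or 2, and control Flt3 was 2.28 CPM after thinning.

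In HSC/MPP-like cells of the Mll3-labelled library, Flt3 was at -0.10 after thinning, -0.10 with resolution 0.5, and -0.033 or -0.42 with hashtag 1 or 2. Satb1 was at 0.34 after thinning, 0.10 with seed 1, and 0.19 or -0.33 by hashtag. Notch1 was at 0.32 after thinning, and Il12a at 0.24 after thinning and 0.079 with hashtag 2. In the Mll4-labelled library Flt3 was at -0.30 with trimmed mean scaling, -0.31 without doublet removal, 0.75 with seed 1, and 0.31 or -0.65 by hashtag. Satb1 was at -0.082 with trimmed mean scaling, -0.10 with resolution 0.5, and 0.43 or -0.31 by hashtag. Notch1 was at -1.18 with resolution 0.5, and Il12a at 0.94 after thinning and 1.11 with seed 1.

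Genes past 2-fold in either direction numbered 5929 over all kept Mll3/4-labelled cells, 9508 with no minimum count and 3584 with a pseudocount of 1 CPM. In the same order they numbered 3489, 8029 and 2265 in B-cell progenitor-like cells, 355, 3445 and 100 in Mll3-labelled HSC/MPP-like cells, and 1270, 4314 and 778 in Mll4-labelled ones.

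Reversed values were those of Il12a over all Mll3-labelled cells, 0.059 after thinning, and over all Mll4-labelled cells, where Notch1 was at -0.19 and Il12a at -0.17 as means of cell shares and at -0.12 and -0.041 after thinning. Satb1 in Mll4-labelled B-cell progenitor-like cells was at -0.18 after thinning and -0.073 against C0. Flt3 in monocyte/macrophage progenitor-like cells could not be recomputed with Leiden resolution 0.5 for either label, or with hashtag 2 alone for the Mll3 label, because that class was not found or held fewer than 50 cells. No paired analysis was possible because each group had 1 library.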
